A study of Rattus norvegicus with 4 samples.

Results

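The genes of caveolae, the flask-shaped pits of the plasma membrane, were examined in rat lung mRNA. The group held 8 of the 22050 genes in the files. These were the caveolins Cav1, Cav2 and Cav3, the coat proteins Cavin1, Cavin2 and Cavin3, all 6 of which were listed under their current symbols, and the membrane-shaping proteins Ehd2 and Pacsin2. The genes were taken by symbol, but the group was picked from earlier results of the same bleomycin and control libraries, so those values chose it. Its differences between the groups are therefore given as a description, with no p-value printed, and support nothing further. Where a gene of the group is said to be called, that too is description. All 8 genes passed the filter on low counts.

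Lungs came from rats of the SD strain (Sprague-Dawley) that were killed on day 28. The bleomycin group had received 5 mg/kg of bleomycin, a DNA-breaking antibiotic with which lung fibrosis is commonly modelled in rodents, as a single intratracheal injection of 0.2 mL on day 0. The control group had received the same volume of normal saline. Each group had 2 libraries, each from 1 rat per the labels; the sources used here give neither age nor sex.

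Caveolae form where caveolin oligomers, which insert as a hairpin into the inner leaflet of the membrane, meet a peripheral coat of cavins. Cav1 and Cavin1 are both needed to make caveolae outside muscle, Cav3 takes the place of Cav1 in striated muscle, and EHD2 and pacsin 2 sit at or shape the neck of the pit. In the lung, caveolae are abundant in capillary endothelium, alveolar type 1 cells, smooth muscle and fibroblasts, and mice without Cav1 lose them from these cells.

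Total gene counts lay between 34683699 and 44381111 per library. The labelled tissue was checked with Sftpc, the surfactant gene that defines alveolar type 2 cells, which was read at 15435 and 14332 CPM (counts scaled to a common library total) in the controls and at 6822 and 13618 CPM in bleomycin replicates 1 and 2. For every caveola gene but Cavin1, the control mean was nearer to bleomycin replicate 2 than to bleomycin replicate 1. Heart muscle transcripts were uneven: 10 markers summed to 224 CPM in control replicate 1, 40.3 CPM in control replicate 2, and 126.7 and 76.7 CPM in bleomycin replicates 1 and 2. Groups are given as mean ± SD over n = 2 libraries. Log2 changes set bleomycin against control, and each has a standard error (SE) from edgeR's quasi-likelihood fit over all genes. An exact permutation test of 2 libraries against 2 cannot give a two-sided p below 0.333, so no single ratio was tested. Lungs were measured whole, so fewer cells of a type and less RNA per cell cannot be told apart.

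Across the 8 genes, the main caveolins and the 2 most abundant cavins were 1.82-fold to 2.80-fold lower in bleomycin lungs, Ehd2 was 1.51-fold lower, Pacsin2 was 1.14-fold lower and Cavin3 was 1.37-fold higher. The bleomycin libraries lay below both controls for 7 genes and above both for 1 gene, Cavin3; among the 15709 genes tested, 33.4% lay below and 35.1% above in the same way. The summed counts of the 8 genes made up 0.510% and 0.475% of all counts in the controls and 0.218% and 0.258% in bleomycin replicates 1 and 2. At an adjusted p under 0.05 over all genes, edgeR called 5 of the 8, all lower (Cav1, Cav2, Cavin1, Cavin2 and Ehd2), where it called 16.7% of all tested genes, 7.44% as lower and 9.26% as higher. Since the group was picked with this contrast known, nothing is read from that count. DESeq2 with all 4 libraries called the same 5, where it called 2065 genes higher and 1809 lower among the 18087 it tested. Of the 38 genes chosen by rule and called with all libraries, these caveola genes included, 0 and 1 were called without control replicates 1 and 2.

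**Figure D1:**
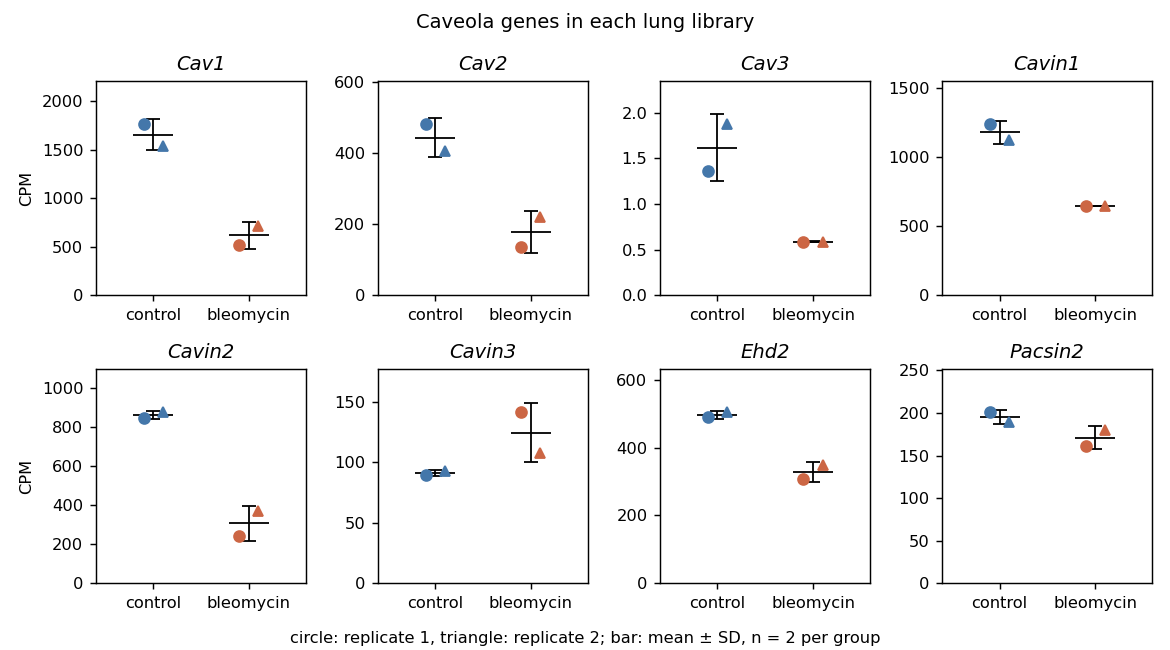
Level of each caveola gene in each library, in CPM on a linear axis that starts at 0; circles are replicate 1, triangles replicate 2, and the bar is the mean ± SD of the 2 libraries of a group. Both bleomycin libraries sit below both controls for 7 genes and above them for Cavin3, from 92.6 to 107.6 CPM at the nearest.

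Cav1 (ENSRNOG00000056836), the principal caveolin of non-muscle cells, was read at 1766 and 1544 CPM in control replicates 1 and 2 and at 520 and 718 CPM in bleomycin replicates 1 and 2. The groups did not overlap, and both bleomycin libraries were far below both controls. The fitted log2 change was -1.42 ± 0.20 (SE), from 1655 ± 158 to 619 ± 140 CPM, or 2.67-fold lower. Cav2 (ENSRNOG00000057713), which needs Cav1 to leave the Golgi and joins it in hetero-oligomers, was read at 483 and 405 CPM in the controls and at 136.6 and 221 CPM in bleomycin replicates 1 and 2. Its log2 change was -1.31 ± 0.25 (SE), 2.48-fold lower. Both bleomycin libraries were below both controls, but for Cav2 the bleomycin pair differed by 0.69 on the log2 scale, the widest of the 8 genes, against a median of 0.23 over all tested genes.

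Cav3 (ENSRNOG00000005798), the caveolin of heart, skeletal and some smooth muscle, was the least abundant of the 8 genes, with 47 and 82 counts in control replicates 1 and 2 and 23 and 26 counts in bleomycin replicates 1 and 2. This is 1.36 and 1.88 CPM against 0.583 and 0.590 CPM. The groups did not overlap, but the log2 change of -1.47 ± 0.42 (SE) had the largest error of the 8 genes and was not called. The summed heart markers were highest in control replicate 1, where Cav3 was the lower of the 2 controls. Myh6, a heart myosin gene, had 77.3, 2.50, 18.6 and 18.6 CPM in control replicates 1 and 2 and bleomycin replicates 1 and 2. In the same order Actc1, cardiac actin, had 41.8, 30.1, 66.2 and 24.7 CPM. Neither was called. Without control replicate 1 the direction of Myh6 turned (log2 change 2.89), without control replicate 2 it was called (-2.05), and without bleomycin replicate 1 the direction of Actc1 turned (-0.55). Of 6 skeletal muscle markers found, 2 rose and 4 did not pass, with a median log2 change of 0.86. Their summed levels were 8.45 and 5.64 CPM in the controls and 29.4 and 16.5 CPM in bleomycin replicates 1 and 2. Of the 6, 3 were higher without overlap, 1 was lower and 2 overlapped. Among all 15709 genes tested, 35.1% were higher and 33.4% lower without overlap. The skeletal muscle marker that was lower was Mylpf (log2 change -0.63). Ckm, with 4.20 and 0.550 CPM in the controls against 1.72 and 0.635 CPM, overlapped. Both were named after their values were seen. Those that rose were the fast myosin gene Myh1 (log2 change 3.46 ± 0.48, edgeR adjusted p = 0.0185) and skeletal actin, Acta1 (3.43 ± 0.70, edgeR adjusted p = 0.0359). Myh1 had 0.521 and 0.229 CPM (18 and 10 counts) in control replicates 1 and 2 and reached 4.05 ± 0.47 CPM in bleomycin lungs. Acta1 had 0.550 and 2.11 CPM (19 and 92 counts) in control replicates 1 and 2 and reached 14.7 ± 7.71 CPM. Both folds thus rest on low control levels. Acta1 was 10.8-fold higher with all libraries, 6.79-fold without bleomycin replicate 1, where its call was lost (edgeR adjusted p = 0.119), 6.89-fold without control replicate 1 and 26.6-fold without control replicate 2; the call was also lost with the replicate block (edgeR adjusted p = 0.116). The log2 change of Myh1 was 4.13 without control replicate 1. The part of heart and skeletal muscle in the Cav3 values was not tested.

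Cav1 and Cav2 are neighbouring genes on rat chromosome 4, and their ratio held within a narrow range. On the length-scaled FPKM of the authors (fragments scaled to transcript length and library depth), which allow levels of different genes to be set side by side, the level of Cav1 was 3.56 and 3.70 times that of Cav2 in the controls and 3.70 and 3.16 times in bleomycin replicates 1 and 2, so these ratios overlapped between the groups. Cav1 made up 75.9% to 78.6% of the summed caveolin FPKM in every library, and Cav3 at most 0.181%.

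The stretches around the starts of Cav1, Cav2 and Cavin2 are shown because these 3 genes had nearly the same pattern over the libraries, and 2 of them share a chromosomal neighbourhood. Each runs from 250 bases before to 50 bases after a gene start in RefSeq, build GRCr8, which is not the build of the count files. They are printed 5′ to 3′ on the gene's own strand, with GC boxes (the 6-base motif GGGCGG, on either strand) in capitals. The table held a promoter for 7 of the 8 genes and a second start for Cav1; Cavin3 was not among them.

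Cav1, first start, chr4:46606288-46606587, plus strand: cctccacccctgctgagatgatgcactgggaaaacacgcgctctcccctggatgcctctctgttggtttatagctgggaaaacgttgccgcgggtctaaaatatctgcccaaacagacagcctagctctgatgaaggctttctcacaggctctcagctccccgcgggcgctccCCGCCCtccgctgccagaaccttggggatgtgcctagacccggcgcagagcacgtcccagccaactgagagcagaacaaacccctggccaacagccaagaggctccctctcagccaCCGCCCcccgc
Cav2, chr4:46582431-46582730, plus strand: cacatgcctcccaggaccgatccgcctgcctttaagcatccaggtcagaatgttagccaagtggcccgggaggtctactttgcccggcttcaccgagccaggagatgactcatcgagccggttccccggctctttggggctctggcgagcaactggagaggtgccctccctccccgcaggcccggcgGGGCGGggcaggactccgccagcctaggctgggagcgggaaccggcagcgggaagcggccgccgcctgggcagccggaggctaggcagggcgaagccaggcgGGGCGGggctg
Cavin2, chr9:57805975-57806274, minus strand: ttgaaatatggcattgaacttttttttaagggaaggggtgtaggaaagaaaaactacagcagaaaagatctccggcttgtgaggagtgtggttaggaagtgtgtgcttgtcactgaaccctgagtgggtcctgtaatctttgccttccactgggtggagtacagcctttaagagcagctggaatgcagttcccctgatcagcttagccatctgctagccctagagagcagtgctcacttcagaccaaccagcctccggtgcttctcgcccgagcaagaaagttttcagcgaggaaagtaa

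The Cav1 stretch held a GC box beginning 77 bases upstream of the start and another 39 bases downstream of it, and the Cav2 stretch held them 63 bases upstream and 39 bases downstream. Cavin1 and Ehd2 held 1 each, and Cavin2, Cav3, Pacsin2 and the second start of Cav1 none, while 33.1% of the 33469 promoters in the table held at least 1. The same search for CACCC found it in Cav1 (both starts), Cav3, Cavin1, Cavin2 and Ehd2 (54.9% of all promoters), CCAAT was in Cav3, Cavin1 and Ehd2 (37.5%), and TATAAA only in the first start of Cav1 among the 8 stretches (14.2%). No motif was shared by Cav1, Cav2 and Cavin2. The G and C content was 61.7% for the first start of Cav1, 70.3% for Cav2 and 48.7% for Cavin2, against a median of 51.7% over all promoters. These matches describe letters in a window and not binding.

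The cavins did not share one pattern over the libraries. Cavin1 (ENSRNOG00000019778), the coat protein required for caveolae and first described as polymerase I and transcript release factor, was read at 1241 and 1122 CPM in the controls and at 649.6 and 648.1 CPM in bleomycin replicates 1 and 2. The bleomycin pair was almost identical for this gene, and both lay far below the controls. Its log2 change was -0.86 ± 0.13 (SE), 1.82-fold lower. Cavin2 (ENSRNOG00000025895), the phosphatidylserine-binding cavin that helps bend the membrane, was read at 848 and 879 CPM in control replicates 1 and 2 and at 245 and 371 CPM in bleomycin replicates 1 and 2. Both bleomycin libraries were far below the controls. The log2 change was -1.49 ± 0.22 (SE) or 2.80-fold lower, and ranged from 2.33-fold without bleomycin replicate 1 to 3.56-fold without bleomycin replicate 2.

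Cavin3 (ENSRNOG00000017914), a cavin that binds protein kinase C delta, went the other way. It was read at 89.3 and 92.6 CPM in the controls and at 141.7 and 107.6 CPM in bleomycin replicates 1 and 2. The controls were close together and both bleomycin libraries were above them, replicate 1 by far more than replicate 2. With all 4 libraries the log2 change was 0.45 ± 0.16 (SE), 1.37-fold higher, and was not called. It was 1.18-fold higher without bleomycin replicate 1 and 1.54-fold higher without bleomycin replicate 2.

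The make-up of the cavin pool differed between the groups while that of the caveolins did not separate them. Of the summed cavin FPKM, Cavin3 made up 9.63% and 10.4% in the controls and 28.3% and 20.8% in bleomycin replicates 1 and 2. Cavin2 made up 36.8% and 39.5% in the controls and 19.7% and 28.9% in the bleomycin libraries, and Cavin1 between 50.1% and 53.6% in all 4. The share of Cavin1 overlapped between the groups and those of Cavin2 and Cavin3 did not. Caveolin FPKM exceeded cavin FPKM in the controls, with ratios of 1.23 and 1.10, and fell short of it in the bleomycin libraries, with ratios of 0.663 and 0.919. The level of Cav1 was 1.78 and 1.72 times that of Cavin1 in the controls and 1.003 and 1.39 times in bleomycin replicates 1 and 2.

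**Figure D2:**
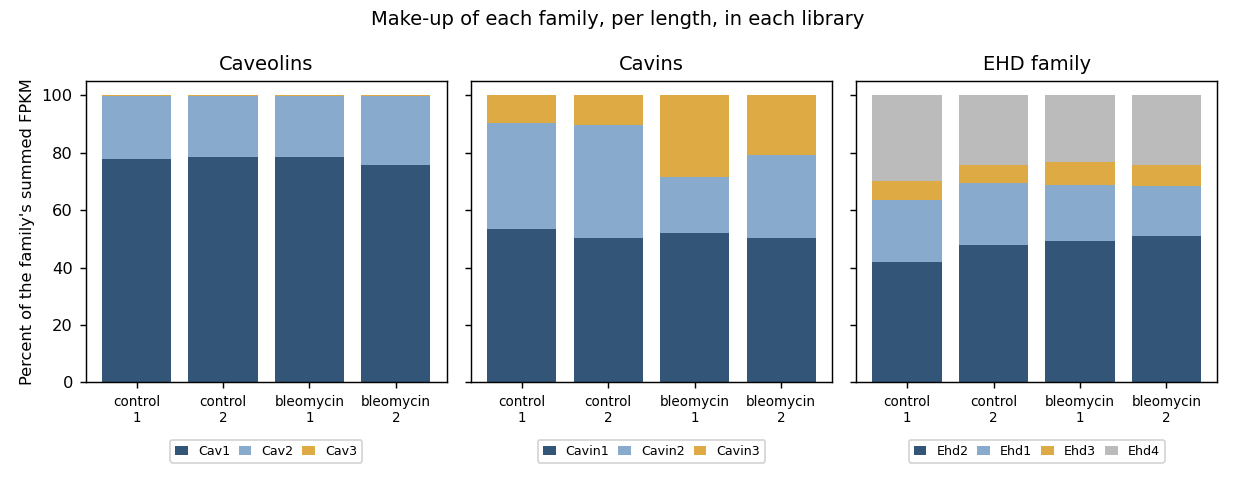
Share of each gene in the summed FPKM of its family, in percent, for the caveolins, the cavins and the EHD family in each of the 4 libraries. Cav1 stays between 75.9% and 78.6% of the caveolins throughout, while Cavin3 goes from 9.63% and 10.4% of the cavins in the controls to 28.3% and 20.8% in bleomycin replicates 1 and 2.

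Among the neck proteins, Ehd2 (ENSRNOG00000011346), an ATPase that forms rings at the neck and holds caveolae at the surface, was read at 488 and 505 CPM in the controls and at 307 and 349 CPM in bleomycin replicates 1 and 2. The groups were well apart and each pair was close. Its log2 change was -0.60 ± 0.12 (SE), 1.51-fold lower, and it was not called with the replicate number as a block. Pacsin2 (ENSRNOG00000009756), an F-BAR protein that curves the membrane and also acts at other endocytic sites, was read at 201 and 189.9 CPM in the controls and at 161.3 and 180.5 CPM in bleomycin replicates 1 and 2. The nearest libraries of the 2 groups differed by little, and the log2 change of -0.19 ± 0.11 (SE) was not called. Relative to Cav1, the FPKM level of Ehd2 was 0.349 and 0.413 in the controls and 0.747 and 0.614 in the bleomycin libraries, and that of Pacsin2 was 0.139 and 0.1496 against 0.377 and 0.306.

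On the FPKM scale the order of levels in the controls was Cav1 (646 ± 58.6), Cavin1 (368 ± 24.6), Cavin2 (271 ± 8.07), Ehd2 (245 ± 6.87), Cav2 (178 ± 21.2), Pacsin2 (92.9 ± 3.4), Cavin3 (70.9 ± 2.2) and Cav3 (1.20 ± 0.28), with no overlap between neighbours in that order. Cav1 ranked 70 and 95 among the 22050 genes in the controls, where rank 1 is the highest FPKM, and 395 and 265 in bleomycin replicates 1 and 2. In the bleomycin libraries the FPKM level of Cav1 (242 ± 52.4) lay just above that of Cavin1 (203 ± 2.45), since the lower Cav1 library had 204.8 and the higher Cavin1 library 204.3. Ehd2 (162 ± 12.9) followed, and then Cavin3 (97.4 ± 19.9), Cavin2 (96.6 ± 27.0), Pacsin2 (81.3 ± 5.6) and Cav2 (71.8 ± 23.2), each overlapping the next. Cavin2, which ranked 255 and 252 in the controls, ranked 1163 and 715 in bleomycin replicates 1 and 2.

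The genes whose pattern was most like that of Cav1 over the 4 libraries were Tspan7, Ramp2, Pitpnm3, Tppp3 and Ednrb. Likeness was the distance between log2 CPM values, each gene centred on its own mean, among 10261 genes; it was 0.04 for Tspan7, a tetraspanin gene, and 0.10 for Ednrb, the endothelin B receptor gene. Tspan7 was read at 777 and 673 CPM in the controls and at 222 and 306 CPM in bleomycin replicates 1 and 2. Of the caveola genes, Cav2 was at a distance of 0.19 and Cavin2 of 0.21, the ranks 31 and 43 of 10858 genes with names of any kind, while Cavin1 was at 0.66 (rank 528), Ehd2 at 0.88 (rank 959), Pacsin2 at 1.26 (rank 2957) and Cavin3 at 1.98 (rank 9345). The same 4 libraries enter every distance and the difference between the groups dominates it, so this is a description without a test.

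**Figure D3:**
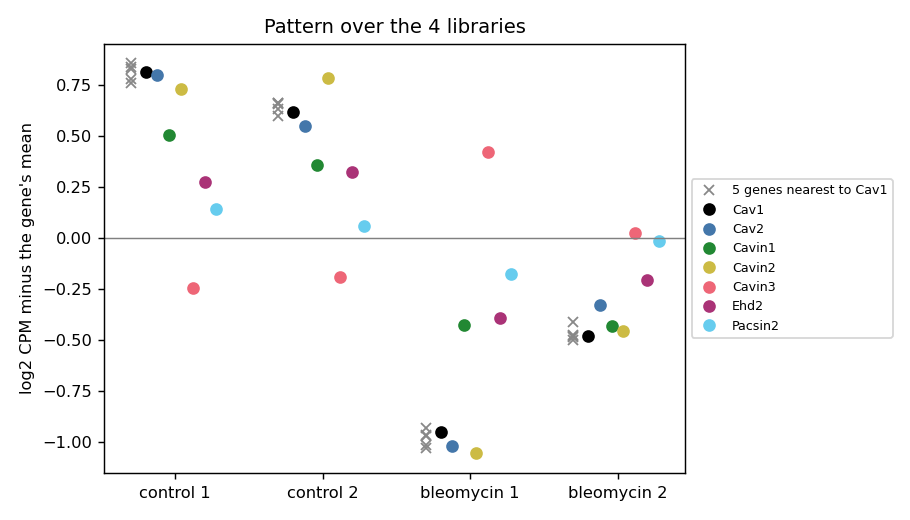
Log2 CPM of each gene minus its own mean over the 4 libraries, by library; coloured points are 7 caveola genes and grey crosses are Tspan7, Ramp2, Pitpnm3, Tppp3 and Ednrb. Cav1, Cav2 and Cavin2 lie close to the crosses, Ehd2 and Pacsin2 lie nearer to 0 throughout and Cavin1 does so except in bleomycin replicate 2, and Cavin3 lies on the opposite side of 0, by little in bleomycin replicate 2.

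The family relatives of these genes were looked at as a list of 6. Of these, 3 fell and 3 did not pass, with a median log2 change of -0.54 against 0.01 over all tested genes. All 3 that fell were EHD proteins, which work in endosomal recycling. Ehd1 fell 1.99-fold, from 382 ± 29.2 to 191.5 ± 1.94 CPM (edgeR adjusted p = 0.0142), Ehd4 fell 1.96-fold (edgeR adjusted p = 0.0307, or 0.0739 without bleomycin replicate 1) and Ehd3 fell 1.42-fold (edgeR adjusted p = 0.0361, or 0.0516 with the replicate number as a block). Ehd2 made up 41.9% and 47.9% of the summed EHD FPKM in the controls and 49.4% and 51.1% in the bleomycin libraries. Cavin4, the cavin of striated muscle, was read at 2.14 and 1.05 CPM in the controls and at 1.697 and 1.84 CPM in the bleomycin libraries and did not pass (edgeR adjusted p = 0.834); its log2 change of 0.15 turned to -0.28 without control replicate 2. Pacsin3 was read at 45.2 and 40.8 against 43.4 and 34.6 CPM (edgeR adjusted p = 0.52) and Pacsin1, the neuronal form, at 1.77 and 1.99 against 1.32 and 1.20 CPM (edgeR adjusted p = 0.275).

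**Figure D4:**
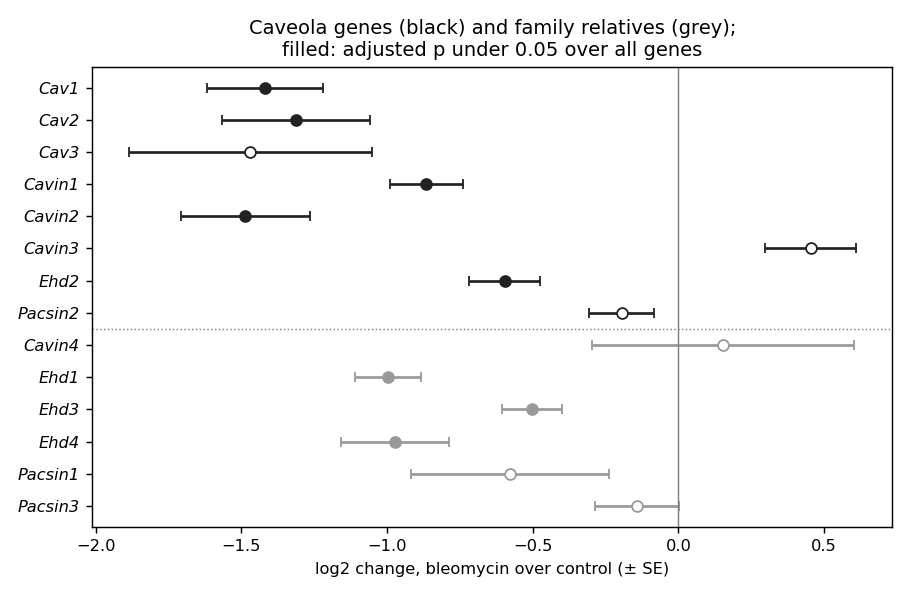
Log2 change, bleomycin over control, with its SE, for the 8 caveola genes (black) and 6 family relatives (grey); filled points have an adjusted p under 0.05 over all genes by edgeR. Cav1, Cav2 and Cavin2 lie between -1.31 and -1.49, Cavin3 lies at 0.45, and Ehd1, Ehd3 and Ehd4 lie below 0 like Ehd2.

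Other genes of the pathway did not share one direction. Of 6 flotillins and stomatins, scaffold proteins of other membrane domains, edgeR called 0, with 0 at an unadjusted p under 0.05 and 0 by DESeq2, and the median log2 change was 0.25; Stom, the most abundant, was read at 198.4 and 170.02 CPM in the controls and at 202 and 241 CPM in bleomycin replicates 1 and 2. Of 13 genes for scission, anchoring and kinases that act on caveolae, 2 fell and 11 did not pass, with a median of 0.06; without bleomycin replicate 2, 4 passed. In that setting 32% of all genes tested passed, against 16.7% with all libraries, which bears on each count given without that library. Those that fell were the Src family kinase gene Yes1, 1.54-fold lower (edgeR adjusted p = 0.0259), and the dynamin gene Dnm3, 1.85-fold lower (edgeR adjusted p = 0.0406). Dnm2, the widely expressed dynamin that cuts the necks, was read at 239 and 238 CPM in the controls and at 203.8 and 213.3 CPM in bleomycin replicates 1 and 2, and the anchoring filamin Flna at 1303 and 1572 against 2060 and 1549 CPM; neither passed. Dnm2 and Flna were named after their values were seen. Of 12 clathrin coat genes, which serve the other main route of uptake, 1 rose and 1 fell, with a median of 0.27. The clathrin assembly gene Picalm rose 1.53-fold (edgeR adjusted p = 0.025) and the epsin gene Epn2 fell 1.67-fold (edgeR adjusted p = 0.0284); without bleomycin replicate 2, 8 of the 12 passed.

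Receptors, channels and enzymes reported to reside in caveolae went both ways. Of 23 tested, 4 rose, 5 fell and 14 did not pass, with a median log2 change of -0.03; DESeq2 called 14. Plvap, which forms the diaphragms of endothelial caveolae and fenestrae, was 4.43-fold lower and fell from 1449 ± 234 to 327 ± 119 CPM (edgeR adjusted p = 0.0187). The endothelin A receptor gene Ednra rose 1.99-fold (edgeR adjusted p = 0.0142), with 63.3 and 63.1 CPM in the controls against 133.6 and 117.98 CPM, while the endothelin B receptor gene Ednrb was read at 208 and 181.1 CPM in the controls and at 56.1 and 82.3 CPM in bleomycin replicates 1 and 2. Nos3, the endothelial nitric oxide synthase that Cav1 binds and inhibits, was read at 27.1 and 23.2 CPM in the controls and at 35.8 and 35.6 CPM in bleomycin replicates 1 and 2, and passed narrowly with a log2 change of 0.51 ± 0.12 (edgeR adjusted p = 0.0498); it was named after its values were seen.

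Markers of alveolar type 1 and endothelial cells, which are rich in caveolae, were summed to lower levels in bleomycin lungs. Of 14 alveolar type 1 markers 11 fell and 3 did not pass, with a median log2 change of -1.19, and their summed level went from 10911 and 11463 CPM in the controls to 4071 and 6202 CPM in bleomycin replicates 1 and 2. Spock2 fell 3.48-fold (edgeR adjusted p = 0.0187), the basement membrane collagen gene Col4a3 2.67-fold (edgeR adjusted p = 0.0222) and the homeodomain gene Hopx 1.88-fold (edgeR adjusted p = 0.0228). Of 15 endothelial markers 6 fell, 1 rose and 8 did not pass, with a median of -0.81 and summed levels of 6887 and 5942 CPM against 3000 and 3826 CPM; without bleomycin replicate 2, 11 of the 15 passed. Tek, the angiopoietin receptor gene, fell 3.71-fold (edgeR adjusted p = 0.0144), Ramp2, a subunit of the adrenomedullin receptor, 2.65-fold (edgeR adjusted p = 0.0164), and Vwf, von Willebrand factor, 2.03-fold (edgeR adjusted p = 0.0177). The marker that rose was Egfl7, a secreted endothelial factor gene, 1.52-fold (edgeR adjusted p = 0.0357), and Emcn, the endomucin gene, was read at 91.3 and 102.6 CPM in the controls and at 112.8 and 201.6 CPM in bleomycin replicates 1 and 2 and did not pass; both were named after their values were seen. For comparison, the median of the 8 caveola genes was -1.09. The part of these cell types in the caveola gene values was not tested.

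Set against the summed CPM of each marker list in the same library, the caveola genes did not share one direction: 2 were lower, 3 overlapped and 3 were higher against the alveolar type 1 sum, and 4 were lower, 1 overlapped and 3 were higher against the endothelial sum. Since both sums were lower in bleomycin lungs, most genes come out higher on this scale: of all 15709 tested, 87.5% were higher and 2.73% lower without overlap against the alveolar type 1 sum, and 84.2% and 4.35% against the endothelial sum. The genes were picked with this contrast known, so nothing is read from these counts. Cav1 was 25.6% and 26.0% of the endothelial marker sum in the controls and 17.3% and 18.8% in bleomycin replicates 1 and 2, and 16.2% and 13.5% of the alveolar type 1 sum against 12.8% and 11.6%. Both ratios were lower without overlap, the second by little. Cavin2 was likewise lower against both sums, at 12.3% and 14.8% of the endothelial sum in the controls and 8.17% and 9.70% in the bleomycin libraries. Cav2 and Cav3 were lower against the endothelial sum only. Cav3 was 0.0198% and 0.0316% of it in the controls and 0.0194% and 0.0154% in the bleomycin libraries. The nearest Cav3 libraries of the groups thus differed by very little, on few counts. Cavin1 overlapped between the groups against both sums, with 18.0% and 18.9% against 21.7% and 16.9% of the endothelial sum. Cavin3, Ehd2 and Pacsin2 were higher against both sums; Cavin3 was 1.296% and 1.56% of the endothelial sum in the controls and 4.72% and 2.81% in the bleomycin libraries.

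Markers of other cells that carry caveolae moved less uniformly. Of 12 smooth muscle and pericyte markers 3 rose and 9 did not pass, with a median log2 change of 0.43 and summed levels of 1288 and 1709 CPM in the controls against 2749 and 1777 CPM in the bleomycin libraries; 1 passed without bleomycin replicate 1, 6 without bleomycin replicate 2, and 7 by DESeq2. Smtn, a smooth muscle actin-binding protein gene, rose 2.04-fold (edgeR adjusted p = 0.028), Rgs5, a pericyte marker, 1.34-fold (edgeR adjusted p = 0.046, or 0.0652 without bleomycin replicate 1 and 0.0699 with the replicate block) and the intermediate filament gene Des 3.09-fold (edgeR adjusted p = 0.0496, or 0.17 without bleomycin replicate 1). Des lost its call also with DESeq2 size factors (edgeR adjusted p = 0.0503), library totals (0.0502), no filter (0.0708) and the replicate block (0.137). Of 10 fibroblast markers 4 rose and 6 did not pass, with a median of 0.11 and summed levels of 1629 and 1488 against 7890 and 3762 CPM. Most of the bleomycin sums came from Col1a1 (5167 and 1968 CPM in bleomycin replicates 1 and 2) and Col1a2 (1773 and 895 CPM). The 2 markers that were lower without overlap were Inmt and Col13a1, with log2 changes of -1.17 and -0.34. Both were named after their values were seen. The collagen genes Col1a1 and Col1a2 rose 8.69-fold (4.78-fold without bleomycin replicate 1) and 4.80-fold (edgeR adjusted p = 0.0224 for both) and the fibroblast transcription factor gene Tcf21 1.83-fold (edgeR adjusted p = 0.0233). Of 6 mesothelial markers 1 rose, Lrrn4, 2.09-fold (edgeR adjusted p = 0.0225), with a median of 0.93 and sums of 165.1 and 285 against 556 and 328 CPM. Of 6 tested adipocyte markers 1 fell, the lipid droplet gene Cidec (edgeR adjusted p = 0.0364), whose p became 0.149 and 0.0843 without the first and the second bleomycin library and whose log2 change of -2.24 became -1.50 without control replicate 1. The list's median was -0.89, and Plin1 and Adipoq, which define fat cells, were at 5.99 and 10.4 CPM in control replicate 1 and at most 1.09 and 4.58 CPM elsewhere.

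Lists for other cells were measured in the same way. Of 8 alveolar type 2 markers edgeR called 0, with 2 at an unadjusted p under 0.05 and 2 by DESeq2, and the median log2 change was -0.24; 4 of the 8, Sftpc among them, passed without bleomycin replicate 2 (edgeR adjusted p = 0.00826). Of 10 macrophage markers 6 rose and 4 did not pass, with a median of 1.11 and summed levels of 1347 and 1512 CPM in the controls against 3356 and 3063 CPM. Mmp12, Spp1 and Gpnmb had log2 changes of 5.41 ± 0.32, 5.34 ± 0.38 and 1.76 ± 0.15 (edgeR adjusted p between 0.00961 and 0.0102). Of 9 tested heart muscle markers edgeR called 0, with 0 at an unadjusted p under 0.05 and 0 by DESeq2. The part of these cells in the caveola gene values was not tested.

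**Figure D5:**
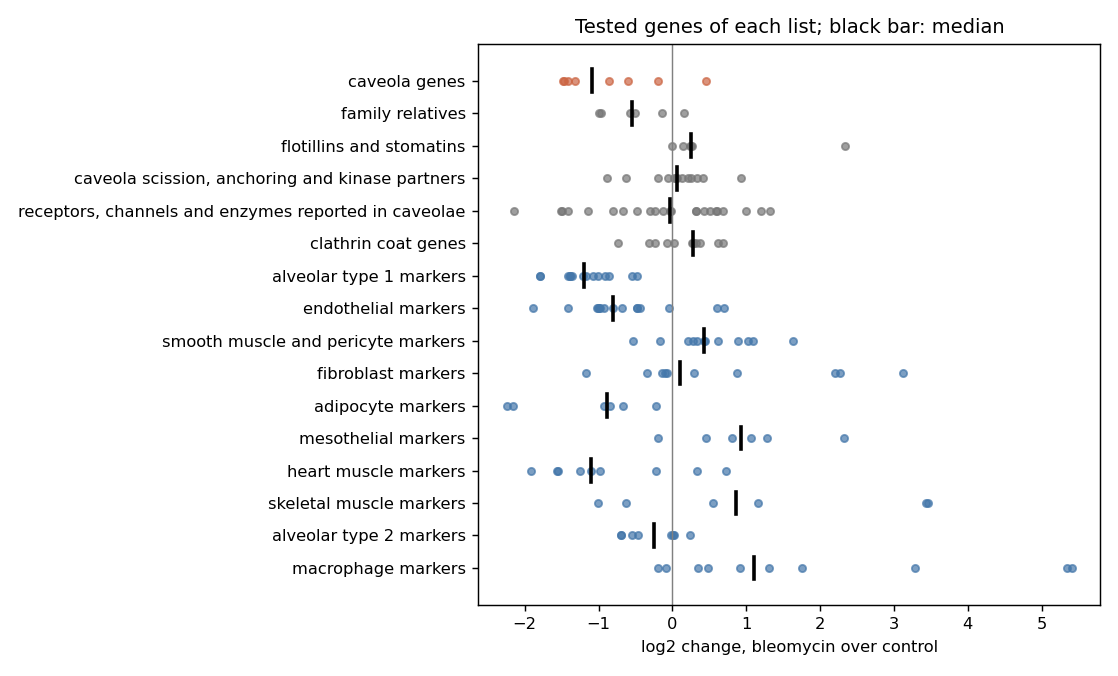
Log2 change, bleomycin over control, of each tested gene (points) in each gene list, with the list's median (black bar); caveola genes are orange, pathway lists grey and cell type markers blue. The median of the caveola genes (-1.09) lies between those of the alveolar type 1 (-1.19) and endothelial (-0.81) markers, and the flotillin and clathrin medians lie at 0.25 and 0.27.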

How the data were processed

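Poly(A)-enriched, randomly primed lung cDNA was sequenced, per the labels' protocols and with no mention of strand, so antisense genes that overlap cannot be separated. The submitters' processing notes name build Rnor_6.0 and the tools HISAT2, StringTie 1.3.1, DESeq2, fastp 0.18.0 and CASAVA 1.8. The authors deposited raw read counts for each gene, in whole numbers. The authors deposited FPKM beside them. Counts measured the group difference and FPKM only set levels of different genes side by side; counts alone grow with transcript length. Depth was 34683699 to 44381111 counts per library, so 3 counts are 0.0681 to 0.0868 CPM; reads carry no molecular identifiers and such limits cover counting error only.

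Counts were fitted with edgeR 4.0.16 in R 4.3.3 (filterByExpr with a minimum count of 10 and total of 15, TMM scaling, robust quasi-likelihood F test, group as the only term, Benjamini-Hochberg adjustment over 15709 genes, threshold 0.05). The SE is the log2 change divided by the square root of F. TMM left the median log2 change of all genes at 0.01. Alternatives were DESeq2 1.42.0 (test, and size factors alone), library totals, no filter, each library left out and a replicate block. The fit was tested on simulated data. Replicate counts differed by 22.6 (control) and 96.6 (bleomycin) times the sampling variance, so none is a copy.

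The members and all 16 lists were chosen with earlier results of these data known. The text names all caveola genes and relatives, up to 3 called members of each other list with the smallest p (otherwise the most abundant), Myh6, and the 5 genes nearest to Cav1 among genes whose mean log2 CPM reached 3. Of 172 list entries, Cd36, Ptgis, Pecam1, Ttn, Myh2 and Myh4 were not found by symbol, and Lep and Nppa were too low to test. A gene that this rule selects is not reported here. No column of other samples was present. Promoter sequences are from RefSeq, build GRCr8.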

Additional observations from a re-analysis of the deposited data

How the results depend on the processing

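Counts of calls rested on having both controls. With all 4 libraries edgeR called 1455 genes higher and 1169 lower. With each library left out in turn the counts ranged from 13 to 2569 higher and from 8 to 2573 lower, and the caveola genes called from 0 to 6, where the low ends came without control replicate 1 (for caveola genes, without either control). There the single control left takes its spread from the bleomycin libraries. Of the 38 called genes named, 0 and 1 kept their call without control replicates 1 and 2. The other scalings and no filter gave 1424 to 1467 higher and 1199 to 1231 lower. DESeq2 called 2065 higher and 1809 lower. Scaling by DESeq2 size factors or library totals, no filter and DESeq2 each called the same 5 caveola genes.

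The replicate numbers share no stated source, and deviations of same-numbered libraries correlated at -0.00237 over genes. With the replicate block 1225 genes were higher and 1026 lower, and 4 caveola genes were called, without Ehd2. Directions of the 8 caveola genes held in all of these settings. With each library left out, Cavin4 ranged from -0.28 (without control replicate 2) to 0.74, Actc1 from -0.55 (without bleomycin replicate 1) to 0.87 and Myh6 from -2.05 to 2.89 (without control replicate 1), and Myh6 turned to 0.26 with the replicate block; the cause was not tested. The summed FPKM of the caveola genes had a log2 ratio of -0.97, or -1.03 after scaling each library's FPKM to one total.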
